A study of Homo sapiens with 6 samples.

Results

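The 6 genes for the hydroxylases that modify prolines and lysines of collagen chains, P4HA1, P4HA2, P4HB, PLOD1, PLOD2 and PLOD3, were followed in colorectal cancer cells with and without BZW2. They were taken by gene symbol from the deposited expression table and are 6 of the 13021 gene identifiers in it that had a single row. They were chosen by the levels and knockdown ratios given here, so these values are a description and carry no test. The cells were 3 established colorectal cancer lines, HCT116, HT29 and SW480. The titles of the HCT116 pair read HCT116WT, which is written HCT116 here. Each line had been infected with a lentivirus expressing a short hairpin RNA (shRNA) against BZW2, or one expressing a non-targeting shRNA, and then kept under 1 µg/ml puromycin until it was stable. Each of the 2 groups held 3 libraries, 1 from each line. Every knockdown title carried the label SH2, and neither a repeat culture nor another hairpin was analysed here.

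Collagen chains fold into a triple helix in the endoplasmic reticulum, and hydroxyl groups on their prolines make that helix stable at body temperature. Prolyl 4-hydroxylase is a tetramer of catalytic alpha subunits, encoded by P4HA1 or P4HA2, and beta subunits, encoded by P4HB, which is also protein disulfide isomerase. Lysyl hydroxylases, encoded by PLOD1, PLOD2 and PLOD3, prepare lysines for sugar attachment and for the cross-links that join collagen fibrils. The catalytic enzymes need oxygen, iron, 2-oxoglutarate and ascorbate, and P4HA1, P4HA2 and PLOD2 are known targets of the hypoxia-inducible factors (HIF). Raised PLOD2 and P4HA1 are known from several solid tumours.

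HIF binds DNA at a short core, ACGTG or GCGTG, so the 250 bases before the RefSeq start site of each gene (GRCh38.p14, 6 of 6 genes matched) were searched on both strands for those letters. At least 1 core was present in 43.2% of 35116 such windows of all genes, so a core by itself is common. The window of P4HA1 held 1 core, whose first base lay 86 bases before the start, and that of PLOD2 held 3, at 213, 200 and 146 bases. P4HB had 1 core and PLOD1 had 2, whereas P4HA2 and PLOD3 had 0 in this window. Only 1 start site per gene was searched. The windows of P4HA2, PLOD1, PLOD2 and PLOD3 lay wholly inside the spans of their genes. On the minus strand, the P4HA2 gene reaches position 132295315 and the PLOD3 gene position 101218420. The 0 cores of P4HA2 and PLOD3, and the counts of PLOD1 and PLOD2, therefore do not cover a start further upstream. The endoplasmic reticulum stress element (CCAAT and CCACG with 9 bases between them) was in 0.0740% and the ATF4-type core TGATGNAA in 3.14% of all windows, and neither was found in the 6 windows. The windows are shown for P4HA1 and PLOD2, which were lower in all 3 lines, for P4HA2, lower in HT29 and SW480, and for PLOD3, which had the largest ratio upward. Each is written 5′ to 3′ towards the start site, with HIF cores of either strand in capitals.
P4HA1, chr10:73096867-73097116, minus strand: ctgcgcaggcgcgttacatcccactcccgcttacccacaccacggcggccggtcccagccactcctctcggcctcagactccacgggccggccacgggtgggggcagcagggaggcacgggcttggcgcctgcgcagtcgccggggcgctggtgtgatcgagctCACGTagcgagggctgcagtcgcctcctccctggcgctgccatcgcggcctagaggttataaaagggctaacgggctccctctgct
PLOD2, chr3:146161185-146161434, minus strand: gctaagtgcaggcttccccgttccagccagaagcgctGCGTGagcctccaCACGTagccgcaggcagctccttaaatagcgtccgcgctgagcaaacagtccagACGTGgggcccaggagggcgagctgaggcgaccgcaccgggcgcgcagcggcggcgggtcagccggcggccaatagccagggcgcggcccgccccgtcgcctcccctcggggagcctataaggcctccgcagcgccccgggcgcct
P4HA2, chr5:132227092-132227341, minus strand: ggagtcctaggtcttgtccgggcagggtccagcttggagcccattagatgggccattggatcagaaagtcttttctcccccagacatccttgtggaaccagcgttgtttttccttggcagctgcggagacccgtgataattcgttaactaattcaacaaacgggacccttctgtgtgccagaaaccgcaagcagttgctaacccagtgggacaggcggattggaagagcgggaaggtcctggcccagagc
PLOD3, chr7:101217582-101217831, minus strand: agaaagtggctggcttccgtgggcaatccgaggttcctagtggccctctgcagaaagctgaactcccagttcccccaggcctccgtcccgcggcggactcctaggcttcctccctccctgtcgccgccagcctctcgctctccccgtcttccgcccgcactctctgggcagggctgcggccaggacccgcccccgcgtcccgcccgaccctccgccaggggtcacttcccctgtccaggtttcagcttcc

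Reads over listed genes numbered 2187373, 8968603 and 6105605 in the HCT116, HT29 and SW480 libraries with BZW2 shRNA, and 5640626, 9317444 and 5078001 in those with non-targeting shRNA. BZW2 itself was at 17.3%, 8.65% and 13.3% of control in HCT116, HT29 and SW480. Of 10 colorectal epithelial markers, 6 had values in every library, EPCAM and CDH1 among them, and the other 4 (KRT20, VIL1, CDX1 and LGALS4) had none. Of 10 markers of fibroblasts and other stromal cells, TAGLN was the 1 with listed values, in HCT116 and HT29, at no more than 17.3 CPM (reads per 1000000 after scaling). A marker with no value listed was not taken as unexpressed. The summed epithelial markers came to 15435, 9099 and 6261 CPM in HCT116, HT29 and SW480 with BZW2 shRNA, against 4073, 10536 and 6538 CPM with non-targeting shRNA. The single markers did not move together in HCT116, where KRT8, KRT18 and KRT19 had log2 ratios of 1.98 to 2.33. CDH1 was at −1.13, −0.79 and −1.63 and EPCAM at −0.55, −0.24 and −0.32 in HCT116, HT29 and SW480. The part of these markers in the results for the hydroxylases was not tested. The HCT116 pair stood apart, because its log2 ratios had an SD of 1.58 over genes, where those of HT29 and SW480 had 0.67 and 0.70. In that pair the ratios also followed transcript GC content (Spearman 0.66 across genes, which are not independent replicates; the HT29 and SW480 values were 0.31 and −0.063). Each member ratio below is therefore given with its value after a smooth correction for GC content and transcript length. After that correction, the HCT116 ratios of KRT8, KRT18 and KRT19 were 0.95, 1.04 and 1.27, and those of CDH1 and EPCAM −1.16 and −0.56. The summed marker levels were not corrected.

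P4HA1, the main catalytic subunit of prolyl 4-hydroxylase in most cells, was lower with BZW2 shRNA in all 3 lines. The gene (ENSG00000122884) spans positions 73007217 to 73096974 of chromosome 10 (GRCh38). Levels are given as RPKM, reads per kilobase of the longest transcript and per 1000000 reads, after scaling of the libraries by trimmed mean of M values (TMM). P4HA1 had 20.7, 29.3 and 31.1 RPKM in HCT116, HT29 and SW480 cells with BZW2 shRNA, against 133, 91.2 and 244 RPKM in cells with non-targeting shRNA. All 3 knockdown libraries thus lay below all 3 controls, and the controls differed from each other far more than the knockdown libraries did. The share of all genes that separate in this way was not computed, and P4HA1 was chosen with these values known, so nothing is read from the separation. The highest of the 6 levels was 11.8 times the lowest, and the SW480 and HT29 knockdown levels were the only neighbours in that order with overlapping 95% counting intervals (exact Poisson).

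Relative to its control, P4HA1 stood at 15.6% in HCT116 (exact 95% counting interval 12.8 to 18.9%, 109 against 2211 reads). It stood at 32.1% in HT29 (29.5 to 34.9%, 741 against 2387 reads) and at 12.8% in SW480 (11.7 to 14.0%, 577 against 3553 reads). These intervals cover counting error only, since no line had a repeat library. The log2 ratios were −2.67, −1.64 and −2.96, and after the GC and length correction −1.81, −1.51 and −3.09. In SW480 the P4HA1 ratio was below that of all but 0.230% of listed genes, in HT29 of all but 2.14%, and in HCT116 of all but 5.58%. In bulk RNA, less transcript per cell and fewer cells with the transcript cannot be told apart.

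**Figure D1:**
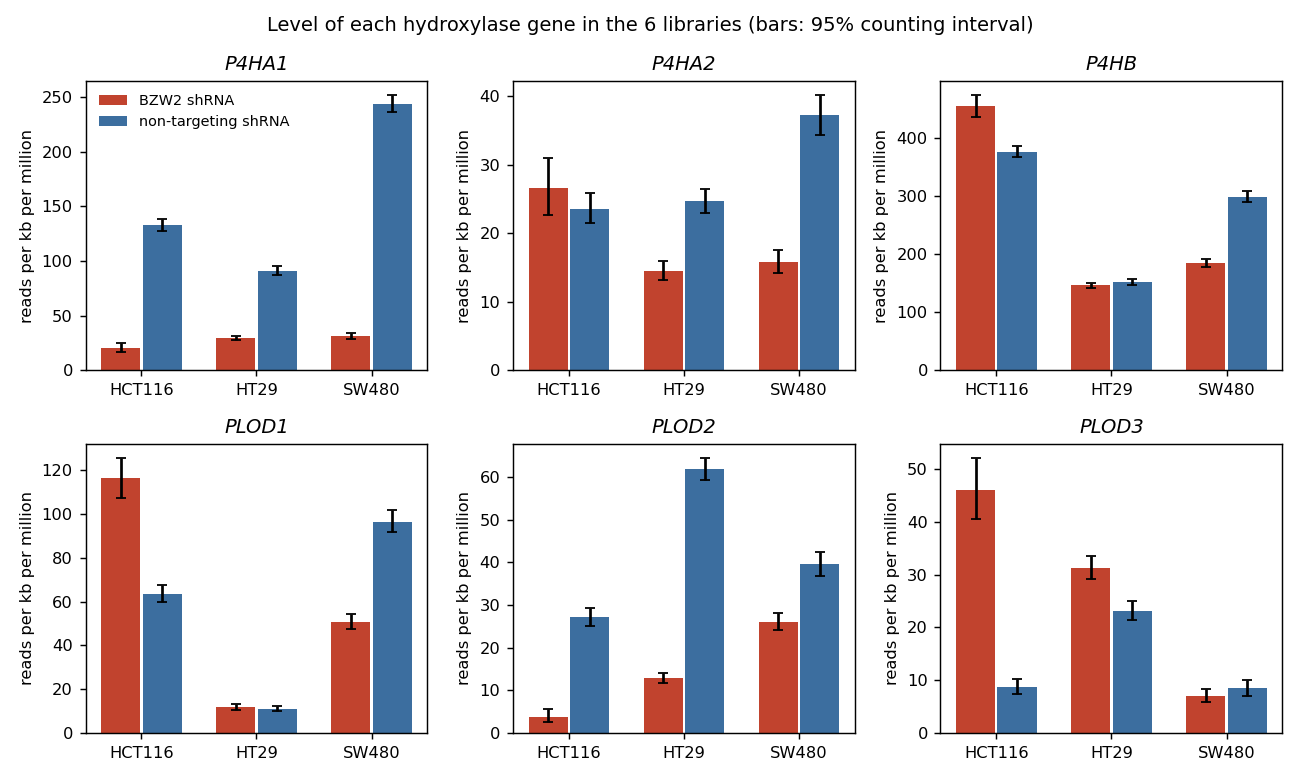
Levels of the 6 hydroxylase genes in RPKM (vertical axes, each with its own scale) in HCT116, HT29 and SW480 cells with BZW2 shRNA (red) and non-targeting shRNA (blue), 1 library per bar; error bars are 95% counting intervals. P4HA1 and PLOD2 are lower with BZW2 shRNA in every line, while PLOD3 is far higher in HCT116, at 46.1 against 8.77.

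P4HA2, the other widely expressed catalytic subunit, was lower in HT29 and SW480 but not in HCT116. The gene (ENSG00000072682) lies at positions 132191838 to 132295315 of chromosome 5. It had 26.6, 14.6 and 15.8 RPKM in HCT116, HT29 and SW480 with BZW2 shRNA, against 23.6, 24.6 and 37.2 RPKM with non-targeting shRNA. The groups overlapped, because the HCT116 knockdown level was the second of the 6 from the top. Neighbours in the order with overlapping intervals were the HCT116 knockdown and HT29 control, the HT29 and HCT116 controls, and the SW480 and HT29 knockdown libraries. P4HA2 was at 59.1% of control in HT29 (52.4 to 66.5%) and at 42.3% in SW480 (37.0 to 48.3%). In HCT116 it was at 113% (94.0 to 135%, 165 against 462 reads), an interval that includes no difference, and the log2 ratio of 0.18 turned to −0.13 when libraries were scaled by size alone. The corrected log2 ratios were −0.11, −0.80 and −1.30 in HCT116, HT29 and SW480.

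The makeup of the alpha subunit transcripts moved towards P4HA2 in each line. Per unit of transcript length, P4HA1 gave 43.8% of P4HA1 and P4HA2 reads in HCT116 with BZW2 shRNA (Clopper-Pearson 95% interval 37.7 to 49.9%), against 84.9% with non-targeting shRNA (83.6 to 86.2%). It gave 66.8% in the HT29 knockdown library (64.1 to 69.4%), against 78.7% in its control (77.3 to 80.1%). In SW480 the share was 66.4% with BZW2 shRNA (63.3 to 69.4%) and 86.8% with non-targeting shRNA (85.7 to 87.7%). The P4HA1 share was thus lower in the knockdown library of each line by more than counting error. HCT116 was the 1 line where P4HA2 became the larger part of the uncorrected reads. In HCT116, genes of like GC content and length had fitted log2 ratios of −0.97 (P4HA1) and 0.18 (P4HA2). The shares were not corrected for that trend, so the change of the larger part in HCT116 may not hold without it. The remaining alpha subunit gene, P4HA3, was scarce: it had 1 against 22 reads in HCT116 (14.4% of control, 0.349 to 89.0%) and 18 against 41 in SW480 (34.5%, 18.7 to 61.5%), with no value listed in HT29.

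P4HB, which encodes the beta subunit, was the most abundant of the 6 per unit length and showed the smallest span of ratios. The gene (ENSG00000185624) lies at positions 81843159 to 81860694 of chromosome 17. It had 455, 146 and 185 RPKM in HCT116, HT29 and SW480 with BZW2 shRNA, against 376, 152 and 299 RPKM with non-targeting shRNA. Line set the order more than hairpin did, with both HCT116 libraries highest and both HT29 libraries lowest, and the HT29 pair were the only neighbours with overlapping intervals. P4HB was at 61.8% of control in SW480 (58.9 to 64.8%) and at 96.1% in HT29, where the interval of 91.7 to 101% includes no difference. In HCT116 it was at 121% (115 to 127%), but the log2 ratio of 0.27 was −0.029 with scaling by library size and −0.89 after the GC and length correction. The corrected ratios were −0.21 in HT29 and −0.69 in SW480.

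Alpha subunit transcripts fell short of P4HB by a wider margin in every knockdown library. P4HA1 and P4HA2 together came to 47.4, 43.8 and 46.9 RPKM in HCT116, HT29 and SW480 with BZW2 shRNA, against 156, 116 and 281 RPKM with non-targeting shRNA. The 3 knockdown sums were close together, whereas the control sums were not. P4HB exceeded the alpha sum 9.60 times, 3.33 times and 3.94 times in the knockdown libraries of HCT116, HT29 and SW480, against 2.40 times, 1.31 times and 1.06 times in their controls. In HCT116, genes of like GC content and length had fitted log2 ratios of −0.97 for P4HA1, 0.18 for P4HA2 and 1.06 for P4HB, and the HCT116 shares and sums carry that trend.

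PLOD2, the lysyl hydroxylase that acts on the ends of collagen chains and so favours stable cross-links, was lower in all 3 lines, least so in SW480. The gene (ENSG00000152952) spans positions 146069440 to 146163653 of chromosome 3. It had 3.81, 12.8 and 26.0 RPKM in HCT116, HT29 and SW480 with BZW2 shRNA, against 27.2, 62.0 and 39.6 RPKM with non-targeting shRNA. The groups did not separate fully, because the SW480 knockdown level and the HCT116 control level had overlapping intervals. The span of 16.3 times between the highest and lowest library was the widest of the 6 genes.

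PLOD2 was at 20.7% of control in HT29 (18.6 to 22.9%, 437 against 2188 reads), where its ratio was below that of all but 0.745% of listed genes. It was at 14.0% in HCT116 (9.16 to 20.6%), a value that rests on 27 against 610 reads, and at 65.8% in SW480 (59.2 to 73.1%). Its transcript had a GC content of 34.4%, lower than that of all but 0.983% of the genes in the table. The log2 ratio of −2.79 in HCT116 was −0.99 after the GC and length correction, and those of −2.27 in HT29 and −0.60 in SW480 were −1.76 and −0.67. The HCT116 ratio of PLOD2 thus moved more under that correction than any other of the 18 member ratios.

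PLOD1, the lysyl hydroxylase of helical lysines, went opposite ways in HCT116 and SW480. The gene (ENSG00000083444) lies at positions 11934205 to 11975538 of chromosome 1. It had 116, 11.9 and 50.8 RPKM in HCT116, HT29 and SW480 with BZW2 shRNA, against 63.7, 11.1 and 96.6 RPKM with non-targeting shRNA. HT29 had little PLOD1 under either hairpin, and its pair did not differ beyond counting error (107% of control, 90.9 to 126%). In SW480 PLOD1 was at 52.7% of control (48.5 to 57.1%), and in HCT116 at 183% (166 to 202%). The HCT116 log2 ratio of 0.87 lay near the value of 1.08 fitted for genes of like GC content and length, so that the corrected ratio was −0.32. The SW480 ratio was −0.92, and −0.89 after correction, and the HT29 ratio of 0.095 was −0.052.

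PLOD3, which encodes an enzyme with both lysyl hydroxylase and glycosyltransferase activity, was higher with BZW2 shRNA in HCT116 and HT29. The gene (ENSG00000106397) lies at positions 101205977 to 101218420 of chromosome 7. It had 46.1, 31.4 and 6.99 RPKM in HCT116, HT29 and SW480 with BZW2 shRNA, against 8.77, 23.2 and 8.42 RPKM with non-targeting shRNA. The groups overlapped, because both SW480 libraries lay near the HCT116 control at the low end. PLOD3 was at 525% of control in HCT116 (427 to 648%, 249 against 150 reads) and at 135% in HT29 (122 to 150%). In SW480 it was at 83.0% (64.6 to 107%, 133 against 126 reads), an interval that includes no difference. After the GC and length correction the log2 ratios of 2.37 and 0.43 in HCT116 and HT29 were 1.05 and 0.26, and that of −0.26 in SW480 was −0.20. In the annotation, 429 of the 5671 exonic bases of PLOD3 are shared with ZNHIT1 on the opposite strand, and the sources used here do not say whether counting used strand.

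**Figure D2:**
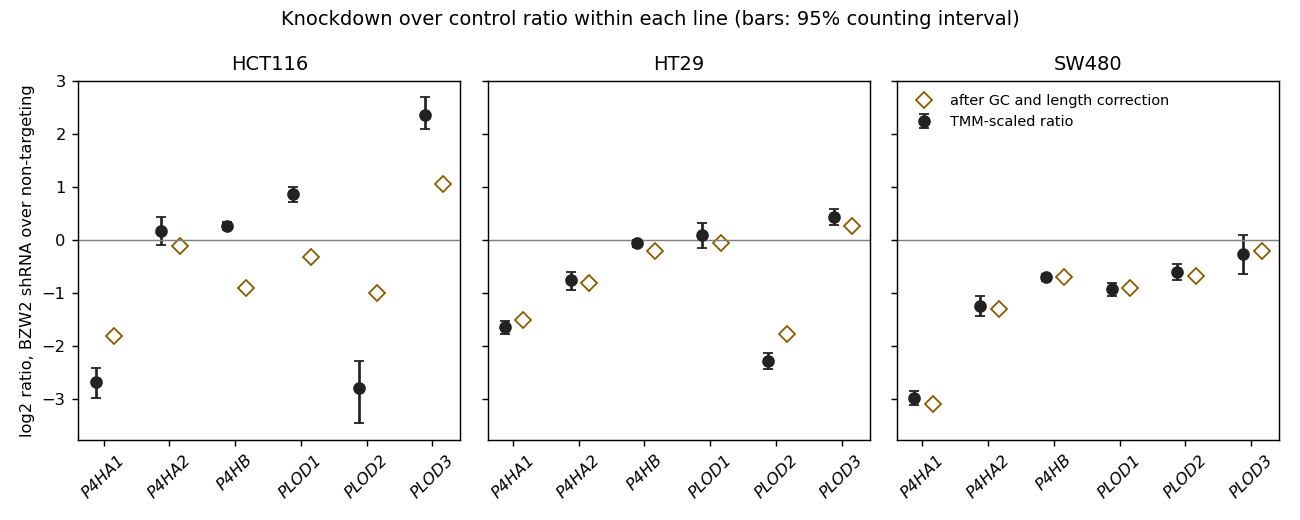
Log2 ratio of BZW2 shRNA over non-targeting shRNA (vertical axis) for the 6 hydroxylase genes in each line; filled points are TMM-scaled ratios with 95% counting intervals and open diamonds are ratios after the GC and length correction. P4HA1 and PLOD2 lie below 0 in every line by both measures, while P4HA2, P4HB and PLOD1 in HCT116 and PLOD1 in HT29 change side with the correction.

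The mix of lysyl hydroxylase transcripts differed between lines and moved with knockdown in line-specific ways. In HT29 with BZW2 shRNA, PLOD2 gave 22.8% of length-scaled PLOD reads (20.9 to 24.9%) and PLOD3 56.0% (53.5 to 58.4%). In HT29 with non-targeting shRNA, PLOD2 gave 64.4% (62.6 to 66.1%) and PLOD3 24.1% (22.5 to 25.7%). The leading lysyl hydroxylase transcript of HT29 was thus PLOD3 in the knockdown library and PLOD2 in the control. In HCT116 the PLOD2 share was 2.29% with BZW2 shRNA (1.51 to 3.32%) and 27.3% with non-targeting shRNA (25.4 to 29.3%), and PLOD1 led under both hairpins, at 70.0% and 63.9%. SW480 was the line where the PLOD2 share was higher in the knockdown library, at 31.1% (29.0 to 33.2%) against 27.4% in the control (25.7 to 29.1%), with intervals that overlap. Shares compare genes of unlike GC content, and the HCT116 and HT29 shares carry the GC trend described above.

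**Figure D3:**
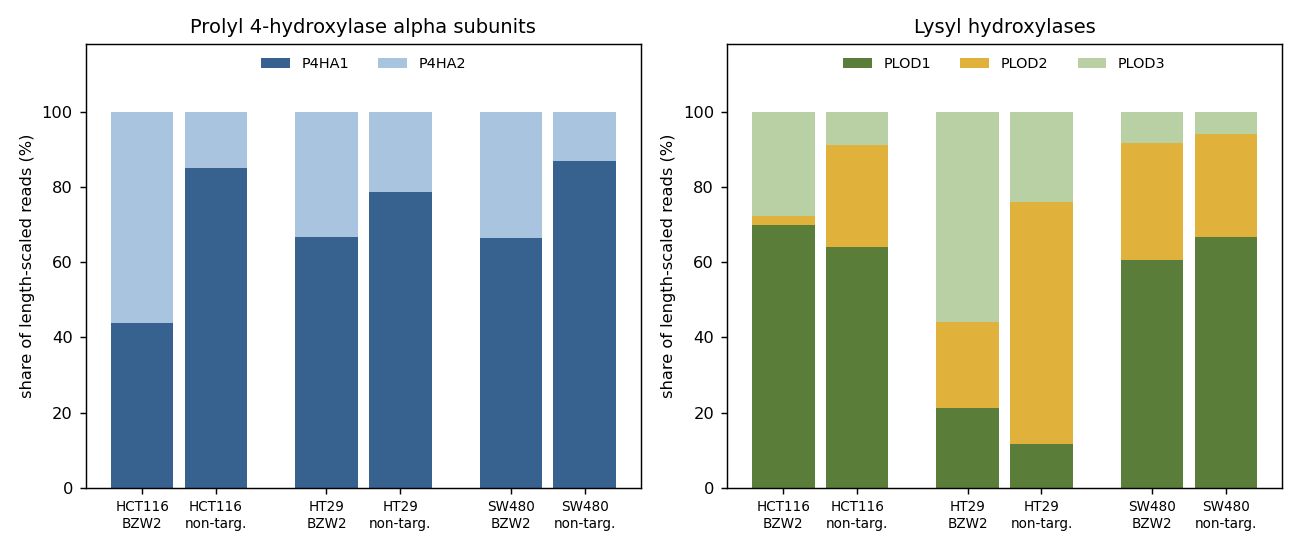
Shares of length-scaled reads (vertical axes, percent) of the prolyl 4-hydroxylase alpha subunit genes P4HA1 and P4HA2 (left) and of the 3 lysyl hydroxylase genes (right), with 1 bar per library and BZW2 shRNA left of non-targeting shRNA in each line. The P4HA1 share is lower in each knockdown library, and the PLOD2 share of HT29 is 22.8% against 64.4%.

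Across the 3 lines, a linear model on log2(value + 1) with cell line and hairpin as terms gave a log2 fold change of −2.37 ± 0.39 for P4HA1 (SE, n = 3 lines). It was −1.84 ± 0.47 for PLOD2 and −0.55 ± 0.41 for P4HA2. The remaining members were at −0.11 ± 0.38 (P4HB), 0.07 ± 0.42 (PLOD1) and 0.90 ± 0.53 (PLOD3). These SEs use a variance that limma moderates with spread pooled over genes. The SD of the 3 line ratios was 0.70 (P4HA1), 1.14 (PLOD2), 0.72 (P4HA2), 0.49 (P4HB), 0.90 (PLOD1) and 1.36 (PLOD3). With any 1 line left out, P4HA1 was at −2.76 to −2.10 and PLOD2 at −2.49 to −1.39. Both were lower in every line, so leaving out a line could not change their sign. PLOD3 was at 0.13 without HCT116 and at 1.46 without SW480, and P4HA2 was at −0.95 without HCT116 and −0.24 without SW480. The signs of P4HB and PLOD1 depended on the line, since P4HB was at 0.16 without SW480 and −0.33 without HCT116. PLOD1 was at −0.37 without HCT116, 0.04 without HT29, 0.54 without SW480 and −0.06 with scaling by library size.

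Of the 6 genes, P4HA1 was the 1 at least 2-fold lower in all 3 lines, as were 0.891% of 9656 genes with at least 5 CPM in the higher library of each line, and 0 of the 6 were at least 2-fold higher in all 3 (1.1%). It was also the 1 at least 2-fold lower in both HT29 and SW480 (1.4%). P4HA1 and PLOD2 were lower by any amount in all 3, as were 22.1% of 10875 genes. In HCT116, 2 of the 6 were at least 2-fold lower and 1 higher, where 29.6% of all genes with enough reads were lower and 26.1% higher. That split, 2982 genes higher and 3374 lower, became 2243 higher and 4113 lower with scaling by library size. In HT29, 2 were lower (background 6.29%) and 0 higher (3.67%), and in SW480, 2 were lower (7.72%) and 0 higher (4.69%). The members were chosen with these ratios known, so nothing is read from their counts.

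**Figure D4:**
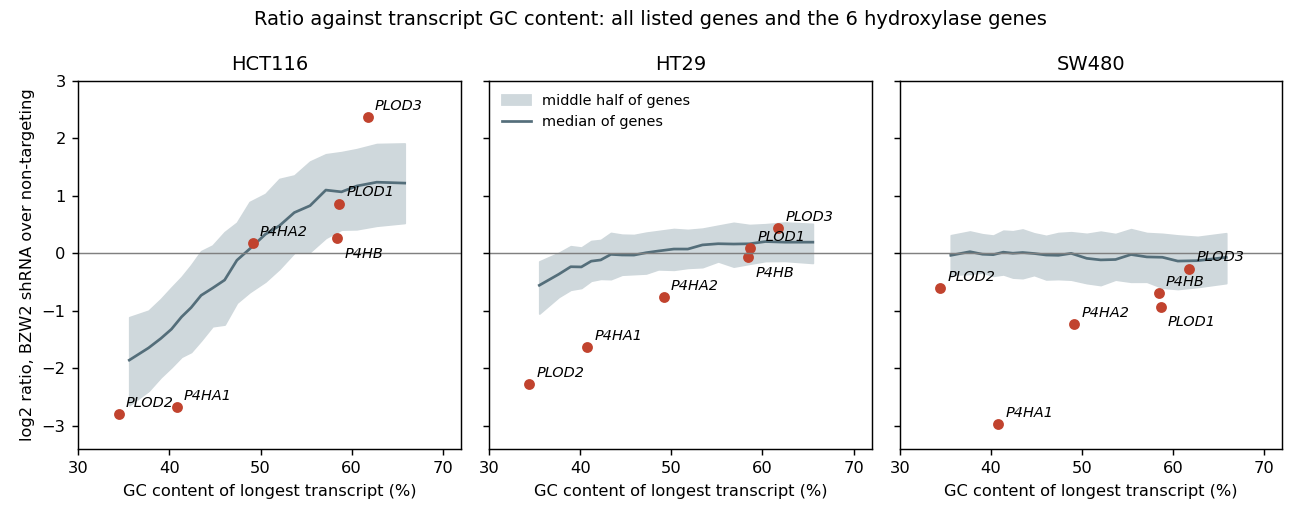
Log2 ratio of BZW2 shRNA over non-targeting shRNA (vertical axis) against GC content of the longest transcript (horizontal axis, percent) in each line; the line and band give the median and interquartile range of all listed genes in 20 bins of GC content, and red points are the 6 hydroxylase genes. The median climbs from −1.86 in the lowest to 1.22 in the highest bin in HCT116, and P4HA1 lies below the band in all 3 lines.

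The genes that act beside the hydroxylases were followed as 8 lists, holding 137 genes of which 81 were listed in all 3 lines. None of the 81 passed in limma across lines with Benjamini-Hochberg adjustment over all 10875 genes (background 0% lower and 0% higher), and the smallest limma adjusted p of any gene was 0.155. With no adjustment, limma had 766 genes lower and 717 higher at p under 0.05; after it, edgeR called 0 and DESeq2 called 134 lower (1.23%) and 110 higher (1.01%). DESeq2 called 11 of the 81, each lower. Without HCT116, limma called 18 of the 81 lower and 0 higher, beside 1.39% and 1.72% of all genes. Without HT29 it called HSP90B1, HSPA5 and NDRG1 lower (background 0.248%, and 0.276% higher), and without SW480 BNIP3L, ERO1B and NDRG1 (0.855%, and 0.405% higher). Genes named below were picked by their ratios in these same libraries, so a pass of such a gene is no further evidence. The lines serve as replicates in these fits. A limma p and SE rest on a moderated variance, which joins a gene's spread among 3 lines to spread pooled over genes. A fit of 2 lines leans more on the pooled part.

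Collagen chains, the substrates of the hydroxylases, were sparsely listed: 21 of 44 had values in at least 1 line and 5 in all 3. A chain with no value listed was not taken as unexpressed. Of these 5, 2 had a negative and 3 a positive fold change, with a median of 0.032 beside 0.021 for all genes, and of −0.12 without HCT116. COL10A1, a short-chain collagen of growth cartilage, had few reads: 4, 11 and 9 with BZW2 shRNA in HCT116, HT29 and SW480, against 55, 66 and 31 with non-targeting shRNA. Its log2 fold change was −2.09 ± 0.52 (limma adjusted p = 0.263), and it passed without HCT116 (−2.18, limma adjusted p = 0.0294). COL12A1, a fibril-associated chain named after its values were seen, was at 162 against 86.1 CPM in HCT116 and at 350 against 96.0 CPM in SW480, with no value listed in HT29.

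Of 13 disulfide isomerases and oxidases tested, 11 lay below 0 across lines and 5 in every line, where 48.9% and 22.1% of all genes did, and 0 passed in limma. The median ratios of the list in HCT116, HT29 and SW480 were −1.03, −0.31 and −0.91. The median ratios of all genes were −0.063, 0.0084 and −0.017. ERO1B, an oxidase that recharges P4HB, was lower in each line, with log2 ratios of −4.09, −1.82 and −1.49 from 10 against 588, 12 against 49 and 154 against 343 reads. It was at −2.46 ± 0.58 across lines (limma adjusted p = 0.259) and at −1.65 without HCT116 (limma adjusted p = 0.0236). PDIA4, a related isomerase set beside P4HB after its values were seen, stood at log2 ratios −2.44, 0.10 and −1.33 for HCT116, HT29 and SW480. P4HB, at 0.27, −0.06 and −0.69, was less low than PDIA4 in HCT116 and SW480.

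Among 20 tested genes of collagen glycosylation, folding and export, 16 lay below 0 across lines (48.9% of all genes) and 9 in every line (22.1%), with a median of −0.28. HSPA5, which encodes the chaperone BiP, had log2 ratios of −1.97, −1.29 and −2.97 in HCT116, HT29 and SW480. It stood at −2.03 ± 0.44 (limma adjusted p = 0.250), and passed without HCT116 (−2.09, limma adjusted p = 0.0153). Among 6 tested genes of collagen trimming and cross-linking, 5 had a positive fold change, as did 5558 of 10875 genes, and the median was 0.53. The median ratios of this list were 1.09, −0.022 and 0.13 in HCT116, HT29 and SW480. After the GC and length correction the HCT116 ratios were −0.31 (BMP1), −0.25 (LOXL1), 0.012 (PCOLCE2), 1.45 (LOXL3) and −2.26 (LOXL4). FURIN, a protease that activates other secreted enzymes, was at 0.72 ± 0.43 (limma adjusted p = 0.436), and its HCT116 ratio of 1.38 was 0.050 after the GC and length correction. LOXL3, a lysyl oxidase relative, was at 1.17 ± 0.64 (limma adjusted p = 0.410). That value rests on few reads, 24, 29 and 20 in HCT116, HT29 and SW480 with BZW2 shRNA, against 11, 15 and 18 with non-targeting shRNA. Its log2 ratios were 2.49, 0.91 and −0.18.

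Other hydroxylases did not share one direction. Of 5 genes of the prolyl 3-hydroxylase complex, 2 had a negative and 3 a positive fold change, and 0 were lower in all 3 lines. P3H4, a scaffold of lysyl hydroxylation, had log2 ratios of 0.82, 0.64 and 0.19 and a fold change of 0.61 ± 0.40 (limma adjusted p = 0.463). The HCT116 ratio of P3H4 turned to −0.49 after the GC and length correction. PPIB, the cyclophilin of the complex, was at −0.61 ± 0.42 (limma adjusted p = 0.483). Of 4 tested genes for hydroxylases of HIF and related proteins, 2 lay below 0 and 2 above. EGLN3, itself a HIF target, was at −1.03 ± 0.46 (limma adjusted p = 0.371) and at −1.42 without HCT116 (limma adjusted p = 0.0294). EGLN1, the main HIF prolyl hydroxylase, was at −0.54 ± 0.36 (limma adjusted p = 0.466), and its HCT116 ratio of −0.32 turned to 0.46 after the correction. The 2 above 0 were HIF1AN, the HIF asparaginyl hydroxylase, at 0.36 and P4HTM, a transmembrane prolyl hydroxylase, at 0.24, both named after their values were seen.

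HIF target genes other than the members had the lowest median fold change across lines of the 8 lists, although in HCT116 the disulfide isomerases were lower. Among 24 tested, 22 lay below 0 across lines (48.9% of all genes), 13 in every line (22.1%) and 4 at least 2-fold below in each (0.891%), and 0 passed in limma. The median fold change was −1.38, and −0.76 without SW480. By line, HCT116, HT29 and SW480 had medians of −0.70, −0.93 and −1.59. The 4 genes were NDRG1, a stress-induced gene (−3.31 ± 0.45, limma adjusted p = 0.155), BNIP3L, a mitophagy receptor (−2.27 ± 0.49, limma adjusted p = 0.250), PDK1, a pyruvate dehydrogenase kinase (−1.74 ± 0.37, limma adjusted p = 0.250), and DDIT4, an inhibitor of mTORC1 (−1.93 ± 0.39, limma adjusted p = 0.250). Each of the 4 passed in limma without HCT116, but of them only NDRG1 passed without HT29, and only BNIP3L and NDRG1 without SW480. They were picked for their ratios in these same lines, so the passes are no further evidence. The GC and length correction took PDK1 to −0.37 in HCT116 and −0.94 in HT29, under 2-fold in both. The list was drawn up with earlier results of these data known, so its direction is no independent evidence.

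The transcripts of HIF subunits and VHL had a median fold change of −0.19 over 4 tested genes, which was 0.0057 without HCT116 and −0.37 without SW480. HIF1A, the main oxygen-regulated subunit, was at log2 ratios −1.29, −0.39 and 0.62 (HCT116, HT29, SW480) and at −0.30 ± 0.43 across lines (limma adjusted p = 0.732). The GC and length correction turned its ratios to 0.30, 0.020 and 0.55. EPAS1, which encodes HIF2-alpha, was lower in each line (−0.27, −1.20 and −1.26) and at −0.86 ± 0.41 (limma adjusted p = 0.379). Without HCT116 it was at −1.19 (limma adjusted p = 0.0351). HIF activity is set mostly through protein stability, which was not measured.

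**Figure D5:**
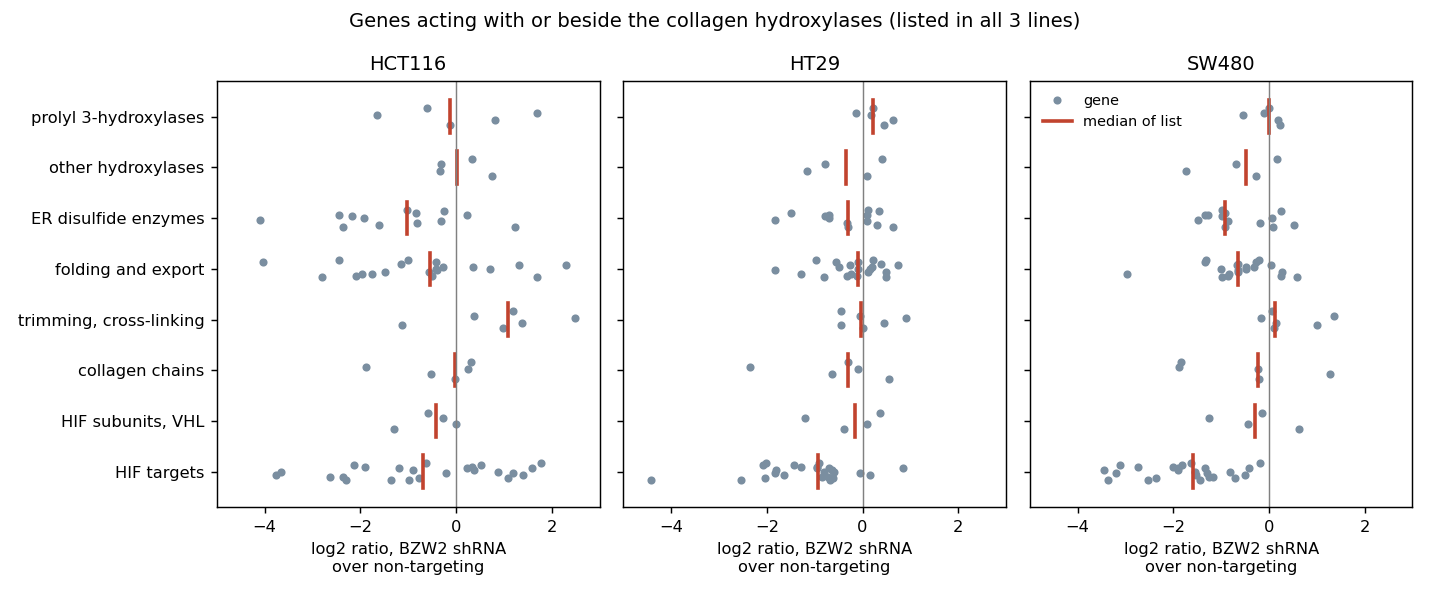
Log2 ratios of BZW2 shRNA over non-targeting shRNA (horizontal axes) in each line for the genes of 8 lists that were listed in all 3 lines; each grey point is a gene and each red bar is the median of its list. The HIF target list has its median at −0.70, −0.93 and −1.59 in HCT116, HT29 and SW480, and its points in HCT116 lie on both sides of 0.

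The genes whose 3 line ratios lay nearest to those of each member were found among 7703 genes with a mean of at least 20 CPM, by Euclidean distance on the log2 scale over 3 ratios. For P4HA1 these were ARG2, a mitochondrial arginase (distance 0.50), PKIB, an inhibitor of protein kinase A (0.52), and HERPUD1, of protein degradation at the endoplasmic reticulum (0.61). For PLOD2 they were ZNF91, a zinc finger gene (0.21), CCDC112 (0.40) and NEBL (0.41). P4HA2 was nearest to RNASET2, a lysosomal ribonuclease (0.045), QSOX1, a sulfhydryl oxidase (0.099), and ELF3, an epithelial transcription factor (0.12). P4HB was nearest to ATP2A2, a calcium pump of the endoplasmic reticulum (0.068), SLC23A2, an ascorbate transporter (0.11), and STX5, a Golgi syntaxin (0.12). The nearest genes to PLOD1 were ARSG, SLC41A3 and CAMSAP1 (0.12 to 0.18), and those to PLOD3 were RBM10, OGDH and INTS1 (0.12 to 0.15). The order rests on 6 libraries without repeats, and the GC trend of HCT116 is part of each distance.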

How the data were processed

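RNA sequencing was analysed in 6 libraries, grouped by the treatment label and paired by cell line. Per the submitters' processing notes, bcl2fastq 2.17, STAR 2.5.2b and DESeq were named, with the GRCh38 build; the sources used here do not name the gene counter, annotation or strandedness. The deposited values were a normalised signal, that is gene read counts divided by a size factor that the authors set within each line, as the values show. Dividing each library by what 1 read was worth recovered whole reads in 100% of values, within 0.1 read (the lowest SW480 control value was worth 2 reads). Every listed gene had 21 reads or more in the sum of a line's libraries. Of 13040 identifiers, 19 repeated ones were left out. Symbols matched 13003 identifiers, and GENCODE 29 gave coordinates, length and GC content for 13018.

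Ratios and levels used recovered reads with TMM factors of edgeR 4.0.16 over 10875 genes listed in all lines and a prior count of 2. The corrected ratio subtracts a loess fit (span 0.3) on GC content and log2 length. Lines were tested together with limma 3.58.1 (R 4.3.3), two-sided, on log2(value + 1) with a cell line term and an intensity trend, at an adjusted p under 0.05 and with 2 residual degrees of freedom. Requiring a value of 1 or more in 3 libraries removed no gene. The scale understates changes of low genes. edgeR and DESeq2 1.42.0 on recovered reads were alternatives. The pairing comes from the shared line: deviations from group means correlated at 0.28, 0.75 and 0.45 within HCT116, HT29 and SW480. The highest correlation of each knockdown library with the control of another line was 0.23, −0.66 and 0.38, little lower in HCT116 and SW480. Alternatives were other pseudocounts, scalings and filters, each line left out and no line term. Scripts were tested on simulated data. Besides the 6 members, the named genes are, from each list, up to 6 that were at least 2-fold in 1 direction in all 3 lines with at least 5 CPM, or else the 2 with the largest median ratio in size. Members and lists were chosen with earlier results of these data known.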

Additional observations from a re-analysis of the deposited data

Results flagged for a closer look

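PLOD1 and P4HB went opposite ways in HCT116 and SW480, each with counting intervals on opposite sides of no difference. The PLOD1 log2 ratio of BZW2 shRNA over non-targeting shRNA was 0.87 in HCT116 and −0.92 in SW480. For P4HB it was 0.27 in HCT116 and −0.69 in SW480. The difference between lines was not tested, since each rests on 1 library per line and hairpin. After the GC and length correction both genes were below 0 in both lines.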

How the results depend on the processing

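Leaving out 1 line gave −0.95 to −0.24 for P4HA2, −0.33 to 0.16 for P4HB, −0.37 to 0.54 for PLOD1 and 0.13 to 1.46 for PLOD3. The fit with no replicate block gives the same fold changes by construction (−2.37 for P4HA1, −1.84 for PLOD2), since each line has both hairpins. It called 0 genes in either direction, as did the other pseudocounts, scalings, filters and edgeR. DESeq2 called 134 lower and 110 higher genes, 11 of them in the 8 lists, and leaving out 1 line gave 27 to 151 lower and 30 to 187 higher genes, 3 to 18 of the lower ones in the lists. The replicate block was part of the DESeq2 and edgeR fits too.

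The GC and length correction moved the most member ratios. In HCT116 it gave −1.81 for P4HA1, −0.11 for P4HA2, −0.89 for P4HB, −0.32 for PLOD1, −0.99 for PLOD2 and 1.05 for PLOD3, so that P4HA2, P4HB and PLOD1 changed sign. In HT29 it gave −1.51 for P4HA1, −0.21 for P4HB, −1.76 for PLOD2 and 0.26 for PLOD3, and PLOD1 turned to −0.052. It left 2074 genes at least 2-fold lower and 1834 higher in HCT116, against 3374 and 2982. Scaling by library size alone gave −0.13, −0.029, 0.57 and 2.07 for P4HA2, P4HB, PLOD1 and PLOD3 in HCT116 and −0.61 for P4HB in SW480. It moved the median of all HCT116 genes to −0.39 and the split to 2243 higher and 4113 lower. The deposited size factors gave 0.35 for P4HB in HCT116. A minimum of 20 CPM left 445 genes at least 2-fold lower in SW480, against 856, since fewer genes were counted. Depth limits PLOD2 in HCT116 most, at 27 reads in the knockdown library. The cause of the GC trend was not tested.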
